A study of Danio rerio with 24 samples.

Results

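H3K27me3 is trimethylation of histone H3 at lysine 27, and its peaks were compared between intestines of zebrafish larvae at 7 and 9 days post fertilization (dpf). The regions were taken from 4 peak lists, 2 per age, by merging all peaks that overlapped or touched. This gave 11617 merged regions. A region was called gained where both 9 dpf lists and neither 7 dpf list had a peak, lost where the reverse held, and kept where all 4 lists had a peak. These classes held 5485 of the 11617 regions, and the 6 H3K27me3 lists of the whole series, with 5 dpf included, merged into 12236 regions. The fish were AB wild type carrying tg(cldn15la:GFP), a green fluorescent protein transgene named for a claudin gene of the intestinal epithelium, and all groups shared this genotype. Each ChIP library came from a pool of 25 dissected intestines, with a further 5 set aside for an input library made without antibody. The antibody was Millipore 07-449. RNA came from separate pools of 10 intestines, with 3 libraries per age. Nothing in the labels says that replicate pools were of different clutches, so any p-value here measures the spread between pools, which may be technical.

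H3K27me3 is written by Polycomb repressive complex 2 (PRC2), in which EZH2 or EZH1 is the methyltransferase and EED and SUZ12 are core partners. It marks genes held silent, among them many developmental transcription factors, and it can form broad domains over clustered target genes. Polycomb repressive complex 1 (PRC1) binds the mark through its CBX subunits, and demethylases of the KDM6 family remove it. H3K4me3, the other mark of the series, is found at active promoters, and in development both marks can lie over the same promoter region.

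The tissue was mixed. Summed over 9 enterocyte markers, RNA was 79576 to 134423 normalised reads per library at 7 dpf and 106134 to 167524 at 9 dpf, so the labelled tissue was present at both ages. Smooth muscle, exocrine pancreas and epidermal markers were also abundant, with sums of 7507 to 12154, 4497 to 11034 and 32162 to 51155 at 7 dpf. Which cells made the RNA of these markers was not tested. None of the marker genes in the RNA table was at 0 in all libraries of these ages. Skeletal muscle markers summed to 939 to 1625 at 7 dpf and 497 to 606 at 9 dpf. In pools of whole intestines, fewer cells of a type and less RNA or less mark per cell cannot be told apart.

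At 9 dpf both lists held more H3K27me3 peaks and covered more of the genome than either list at 7 dpf. The 7 dpf lists held 5922 and 5990 peaks and the 9 dpf lists 9119 and 8753. The ages did not overlap. Mean peak number was 5956 ± 48.1 at 7 dpf and 8936 ± 259 at 9 dpf (SD, n = 2 lists per age), a ratio of 1.5. Covered length was 11.4 and 11.44 Mb at 7 dpf and 15.13 and 14.91 Mb at 9 dpf, a ratio of 1.32. Peak number therefore differed by a larger ratio than length. Median peak width was 1001.5 and 995 bases at 7 dpf against 876 and 900 bases at 9 dpf. This direction turned when each list was limited to its 5922 peaks of lowest q value, as many as the shortest holds, with medians of 1001.5 and 1010.5 against 1306 and 1296 bases. In those lists the 9 minus 7 dpf difference in covered length was 1.66 Mb in place of 3.60 Mb, and that in median fold 0.511 in place of 0.147. Long peaks of 5000 bases or more were also more numerous at 9 dpf, with 544 and 538 against 469 and 476. The median fold enrichment, the authors' own ratio of each peak over its background, was 4.05 and 4.12 at 7 dpf and 4.17 and 4.29 at 9 dpf. For each of these 4 quantities (number, covered length, median width and median fold) the two-sided exact permutation p was 0.333, the smallest that 2 lists against 2 allow.

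**Figure D1:**
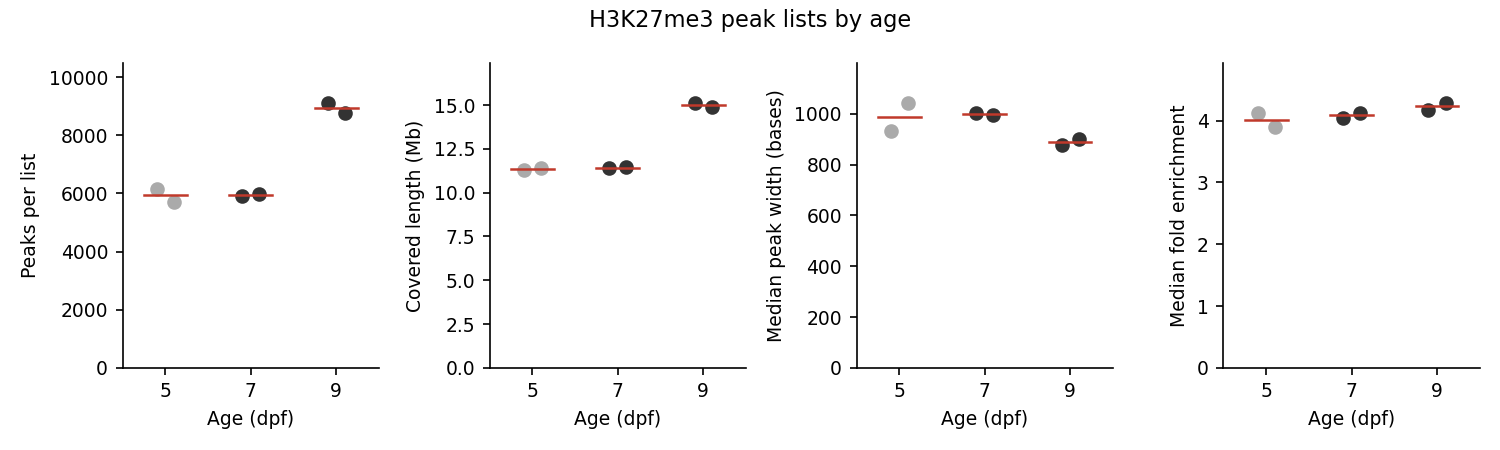
Number of peaks, covered length in Mb, median peak width in bases and median fold enrichment of the H3K27me3 lists (vertical axes) by age in dpf (horizontal axis). Each point is 1 list and each red line the mean of 2 lists; the 9 dpf lists lie above the 7 dpf lists in number and covered length and below them in median width, a direction that turns with lists of equal length, and the 5 dpf lists, in grey, held 6163 and 5704 peaks.

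The other libraries of the series also differed between these ages. H3K4me3 lists held 17703 and 17656 peaks at 7 dpf and 18593 and 18799 at 9 dpf, and their median fold was 9.2 and 9.1 against 12.04 and 11.57. The input lists held 717 and 809 peaks. The depth to which the ChIP libraries were read is unknown, and a list from a deeper or better enriched library can hold more peaks, so age and library yield cannot be told apart in these lists.

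Gained regions outnumbered lost regions. Of the 11617 merged regions, 1388 were gained (11.9%), 101 were lost (0.869%) and 3996 were kept (34.4%). A further 3569 regions (30.7%) had a peak in 1 of the 9 dpf lists alone and 929 in 1 of the 7 dpf lists alone. The remaining 1634 were other mixtures. The balance between gained and lost depended on list length. With lists of equal length, 5922 peaks each, 450 regions were gained and 303 lost, while 3523 were kept. In those lists of equal length the weakest peak had a −log10 q of 3.06 and 3.15 at 7 dpf and of 4.38 and 4.32 at 9 dpf. Leaving out 1 list loosened the rule: 3141 regions were gained without 9dpf_1 and 3480 without 9dpf_2, and lost regions numbered 202 and 201 without these, 632 without 7dpf_1 and 558 without 7dpf_2. The same rule gave 308 gained, 363 lost and 3554 kept regions at 7 against 5 dpf, a comparison that shares the 7 dpf lists with this one and in which the lists were of similar length.

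Most gained and lost calls lay close to the level at which peaks were listed. The lowest −log10 q in any of the 4 lists was 3.01. Taking for each gained region the weaker of its 9 dpf peaks, the median −log10 q was 3.99, and 712 regions (51.3%) were under 4. Lost regions lay nearer still, with a median of 3.67 in the weaker 7 dpf list and 77 of 101 (76.2%) under 4. Only 208 of 1388 gained and 4 of 101 lost regions had a −log10 q of 5 or more in both lists of the age that held them. Shared over combined length was 0.674 for the 7 dpf pair and 0.666 for the 9 dpf pair, and 0.587 to 0.599 for the 4 pairs across age, in which the lists differ in length. Each 9 dpf list held 85.8% to 86.5% of the bases of a 7 dpf list, more than the 80.7% and 80.4% that the 7 dpf lists held of each other. The 9 dpf lists covered more bases, and a longer list can hold more of another by its length alone. These shares therefore do not show a closer match across age than between replicates.

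Gained and lost regions were short, and kept regions were long. Median width was 820 bases for gained regions (quartiles 572.5 and 1186.25), 715 bases for lost regions (506 and 1054) and 2328 bases for kept regions (1559 and 3750.25). No gained or lost region reached 5000 bases, against 660 kept regions (16.5%). The widest gained region spanned 3976 bases, the widest lost region 2218 and the widest kept region 87139. Regions with a peak in a single 9 dpf list were shorter again, with a median of 402 bases. A kept region merges 4 lists and a gained region 2, which by itself widens the former. In total, gained regions spanned 1.3 Mb, lost regions 0.08 Mb and kept regions 14.33 Mb. Kept regions held 92.7% of the covered bases in each 7 dpf list and 80.0% and 81.0% in the 9 dpf lists. Gained regions held 15.3% and 16.0% of the 9 dpf peaks but 6.46% and 6.43% of the bases.

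Fold enrichment followed the same order within each list. In the 9 dpf lists the median fold was 3.96 and 4.06 for gained regions, 4.8 and 4.89 for kept regions and 3.81 and 3.9 for regions of that list alone. In the 7 dpf lists it was 3.86 and 3.86 for lost regions and 4.25 and 4.31 for kept regions. MACS2 marks within a broad peak the sub-blocks that pass a stronger level. Such a block was present in 45.2% and 42.2% of gained regions against 93.2% and 92.8% of kept regions at 9 dpf. At 7 dpf it was present in 27.7% and 21.8% of lost regions and in 80.5% and 77.0% of kept ones. The classes were defined by presence in these same lists, so these values describe them and carry no test.

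**Figure D2:**
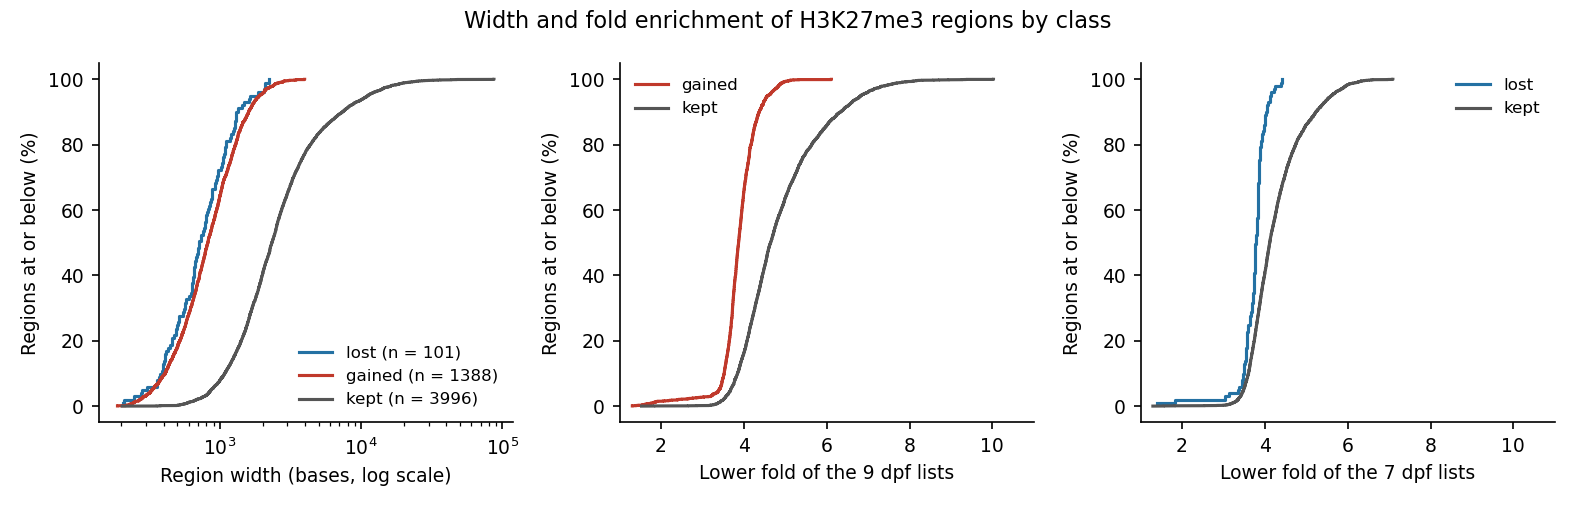
Cumulative share of regions in percent (vertical axes) by region width in bases on a log scale (left), by the lower fold of the 9 dpf lists (middle) and by the lower fold of the 7 dpf lists (right). Lines are gained (red), lost (blue) and kept (grey) regions; the gained and lost lines run close together, at a median width of 820 and 715 bases, to the left of the kept line at 2328 bases.

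Of the 10 gained regions with the highest fold, 9 were a single peak in each 9 dpf list and 7 were narrower than the gained median of 820 bases. All positions are on GRCz10, counted from 1, and no annotation of that build was used, so no region is assigned to a gene, exon or promoter. The first was on chromosome 10 (6786684 to 6787336, 653 bases), with folds of 6.11 and 6.8 in the 9 dpf lists and −log10 q of 10.31 and 11.63. It had no peak in the 7 dpf lists, and 1 of the 5 dpf lists covered 286 of its bases. The second, on chromosome 21 (13654347 to 13654835), had folds of 5.33 and 5.42 and carried H3K4me3 peaks in all 4 lists of 7 and 9 dpf. The third, on chromosome 18 (48374744 to 48375494), had folds of 5.2 and 6.06 and also carried H3K4me3 in all 4 lists. It was absent from both 5 dpf lists. Across the 10 gained regions with the highest fold, 4 carried H3K4me3 in all 4 lists, 5 had a peak in at least 1 of the 5 dpf lists and 0 met an input peak. The widest gained region, on chromosome 22 (19088969 to 19092944), had folds of only 3.75 and 3.85.

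Lost regions are given by their folds in the 7 dpf lists. These are relative to each library's own background and so not directly comparable with those of the 9 dpf lists. The first by fold, on chromosome 20 (20555564 to 20556352, 789 bases), had folds of 4.47 and 4.39 in the 7 dpf lists and was present in both 5 dpf lists. The second, on chromosome 25 (34811911 to 34812877), had folds of 4.68 and 4.24 and a peak in 1 of the 5 dpf lists. The fifth had the largest −log10 q of the 10, 16.56 and 9.39, but this 205-base region on chromosome 19 (1711317 to 1711521) coincided with peaks in both input lists. Of the 10 lost regions with the highest fold, 7 had a peak in at least 1 of the 5 dpf lists. The widest lost region lay on chromosome 23 (35782519 to 35784736), with folds of 3.66 and 4.35. Peaks of input at 7 or 9 dpf met 33 gained regions (2.38%), 3 lost regions (2.97%) and 13 kept regions (0.325%), against 0.895% of all merged regions.

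Kept regions covered more bases at 9 dpf more often than fewer. Of 3996, 1741 had more covered bases in both 9 dpf lists than in both 7 dpf lists (43.6%), 355 had fewer (8.88%) and 1900 overlapped between ages (47.5%). The median covered length was 1431 and 1457 bases at 7 dpf and 1837 and 1816 bases at 9 dpf. Per region the median of the 9 dpf mean minus the 7 dpf mean was 292.2 bases (quartiles −8.4 and 679.2), a median ratio of 1.172. In absolute size, replicate lists of an age differed by a median of 331 bases at 7 dpf and 313 at 9 dpf, and the 4 pairs of lists across age by 440.5 to 461.5 bases. Cutting lists to equal length removes whole peaks and leaves the ends of the others as called, so it cannot separate age from library yield. The direction held with lists of equal length, where 1541 kept regions were longer and 321 shorter. It also held with 1 list left out, where shorter regions numbered 866 without 7dpf_1, 839 without 7dpf_2, 760 without 9dpf_1 and 764 without 9dpf_2, and longer ones 2626 without 7dpf_1 and 2640 without 7dpf_2. It was seen in every width class with more than 10 kept regions, from 42.1% longer and 8.09% shorter at 500 to 1000 bases to 40.5% longer and 11.1% shorter at 5000 bases or more. Most kept regions, 3201 of 3996, were a single peak in all 4 lists, while 34 held more peaks in both 9 dpf lists than in both 7 dpf lists and 64 held fewer.

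**Figure D3:**
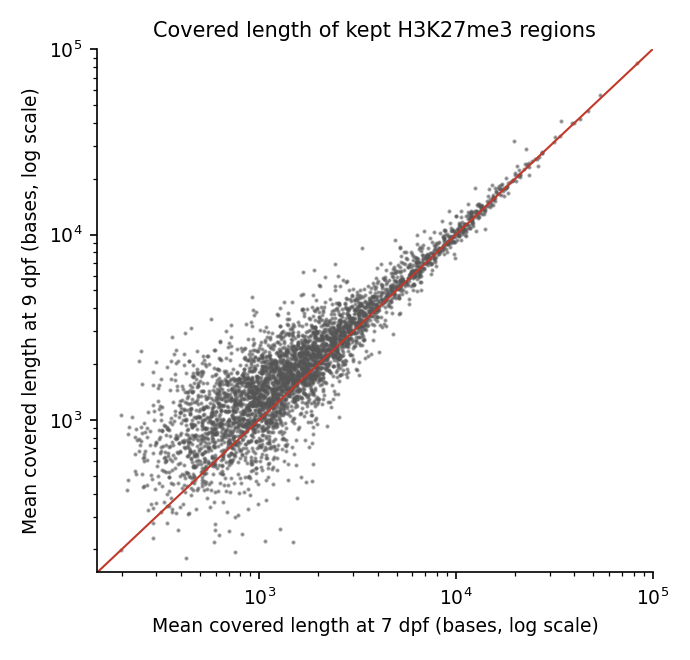
Mean covered length of each of the 3996 kept regions at 7 dpf (horizontal axis) and at 9 dpf (vertical axis), in bases on log scales, each mean over 2 lists. Points above the red line of equality were longer at 9 dpf; 1741 regions were longer in both 9 dpf lists than in both 7 dpf lists and 355 were shorter.

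The widest kept regions were listed at all ages. Of the 10, 4 were covered over more bases in both 9 dpf lists than in both 7 dpf lists, 2 over fewer, and the other 4 overlapped between ages. The widest, on chromosome 23 (35938846 to 36025984), was covered over 84406 and 82025 bases at 7 dpf and 84037 and 84537 bases at 9 dpf. The second, on chromosome 9 (1957603 to 2015363), was covered over 53816 and 53743 bases at 7 dpf and 55613 and 57455 bases at 9 dpf. All 10 of the widest had peaks in both 5 dpf lists, and 8 carried H3K4me3 in all 4 lists of 7 and 9 dpf. In 9 of the 10 the fold was higher in both 9 dpf lists than in both 7 dpf lists. This was not counted over all kept regions, so it is not shown to be particular to the widest. The median fold of all kept regions was 4.25 and 4.31 at 7 dpf and 4.8 and 4.89 at 9 dpf. In the widest region the fold was 4.85 and 4.88 at 7 dpf and 5.76 and 5.8 at 9 dpf. Kept regions of 5000 bases or more had a median fold of 5.13 and 5.2 at 7 dpf and 6.01 and 6.04 at 9 dpf. Fold is relative to each library's own background, and the fold of kept regions was not tested between ages.

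The kept region with the largest increase lay next to another of the widest. On chromosome 19 (20186040 to 20220343) the covered length was 20619 and 18931 bases at 7 dpf and 32374 and 31870 bases at 9 dpf, with 7 and 6 peaks at 7 dpf and 3 at 9 dpf in each list. The ranking took only kept regions whose ages did not overlap, so the separation of the ages here was set by that choice. The region began 6984 bases after a 41452-base kept region (20137604 to 20179055) in which the ages overlapped. That neighbour was covered over 41356 and 37947 bases at 7 dpf and 39810 and 39879 bases at 9 dpf. Another pair of neighbours lay on chromosome 3, where a 47477-base region (23506344 to 23553820) was followed after 16174 bases by a 43492-base region (23569995 to 23613486). The first of these was covered over 47390 and 46645 bases at 7 dpf and over fewer, 46367 and 46233, at 9 dpf. The second of these was covered over 34016 and 34543 bases at 7 dpf and 41813 and 40489 bases at 9 dpf. The largest decrease was on chromosome 20 (20591398 to 20605657), from 13723 and 14260 bases to 10957 and 10562 bases. This region was a single peak in each 7 dpf list and 2 and 4 peaks in the 9 dpf lists, its fold was 5.58 and 5.3 against 6.98 and 7.24, and H3K4me3 peaks covered 1629 and 1257 of its bases at 9 dpf and none at 7 dpf. H3K4me3 in both 9 dpf lists and neither 7 dpf list was found for 6.48% of the shorter kept regions and 6.03% of the longer ones.

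The 5 dpf lists, which the classes did not use, separated the classes. A peak in both 5 dpf lists was found for 86.0% of kept regions, 23.8% of lost regions and 11.4% of gained regions, against 36.4% of all merged regions. Kept regions were also wider, and a wider region can meet a peak more easily. At 500 to 1000 bases the shares were 59.9% of kept, 25.0% of lost and 9.81% of gained regions. At 1000 to 2000 bases they were 77.4%, 25.0% and 16.5%. For 925 gained regions (66.6%) neither 5 dpf list had a peak, and for 158 both did, so that the latter were listed at 5 and 9 dpf and not at 7 dpf. Those 158 were wider than the 925, with a median of 1024.5 against 774 bases. Width and 5 dpf presence moved together within the gained class. A peak in both 5 dpf lists was found for 4.38% of gained regions under 500 bases and for 20.3% of those of 2000 to 5000 bases.

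H3K4me3 was more frequent at kept regions than at gained or lost ones. In the lists of 7 dpf an H3K4me3 peak overlapped 26.7% and 26.2% of gained regions, 11.9% of lost regions in each list and 44.5% and 43.8% of kept regions. In the lists of 9 dpf these shares were 30.0% and 30.3%, 11.9% and 9.90%, and 52.9% and 54.7%. Kept regions were also wider, and a wider region can meet a peak more easily. At 500 to 1000 bases the 7 dpf shares were 28.2% and 27.3% of gained and 35.3% and 31.1% of kept regions. At 1000 to 2000 bases they were 29.6% and 28.7% against 41.1% and 40.4%. Among gained regions 339 (24.4%) carried H3K4me3 in all 4 lists, against 22.6% of all merged regions, and 940 (67.7%) carried none, against 67.3%. Both marks were read in pools of whole intestines, so the overlap does not show that they lay on the same chromatin or in the same cells.

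H3K4me3 peaks that appeared at 9 dpf lay in kept H3K27me3 regions more often than standing ones, as did those of a single 9 dpf list. By the same rule 672 H3K4me3 regions were gained between 7 and 9 dpf and 273 of them (40.6%) overlapped a kept H3K27me3 region. The share was 10.1% of the 16558 H3K4me3 regions present in all 4 lists and 10.6% of the 104 lost ones. It was 43.0% of the 1012 H3K4me3 regions in 1 of the 9 dpf lists alone. For the 379 in 1 of the 7 dpf lists alone it was 16.4%. At kept H3K27me3 regions, 219 had H3K4me3 in both 9 dpf lists and neither 7 dpf list, and 12 the reverse. Of the 660 kept regions of 5000 bases or more, H3K4me3 overlapped 47.4% and 46.2% at 7 dpf and 65.0% and 67.6% at 9 dpf. These increases changed with the length of the H3K4me3 lists, which were longer at 9 dpf. The gained H3K4me3 regions had a median fold of 4.04 and 3.97, against 13.37 and 12.95 for those in all 4 lists. With the 4 H3K4me3 lists limited to the 17656 peaks of lowest q value, the share of kept regions with H3K4me3 was 44.2% and 43.8% at 7 dpf and 44.9% and 44.8% at 9 dpf. For kept regions of 5000 bases or more it was then 47.1% and 46.2% against 51.7% and 51.5%. In those lists 24.8% of gained, 21.2% of lost and 9.61% of kept H3K4me3 regions overlapped a kept H3K27me3 region. The share was 32.4% for H3K4me3 regions in 1 of the 9 dpf lists alone and 25.7% for those in 1 of the 7 dpf lists alone. The excess was then seen for lost and single-list H3K4me3 regions as well, and was not particular to gained ones.

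**Figure D4:**
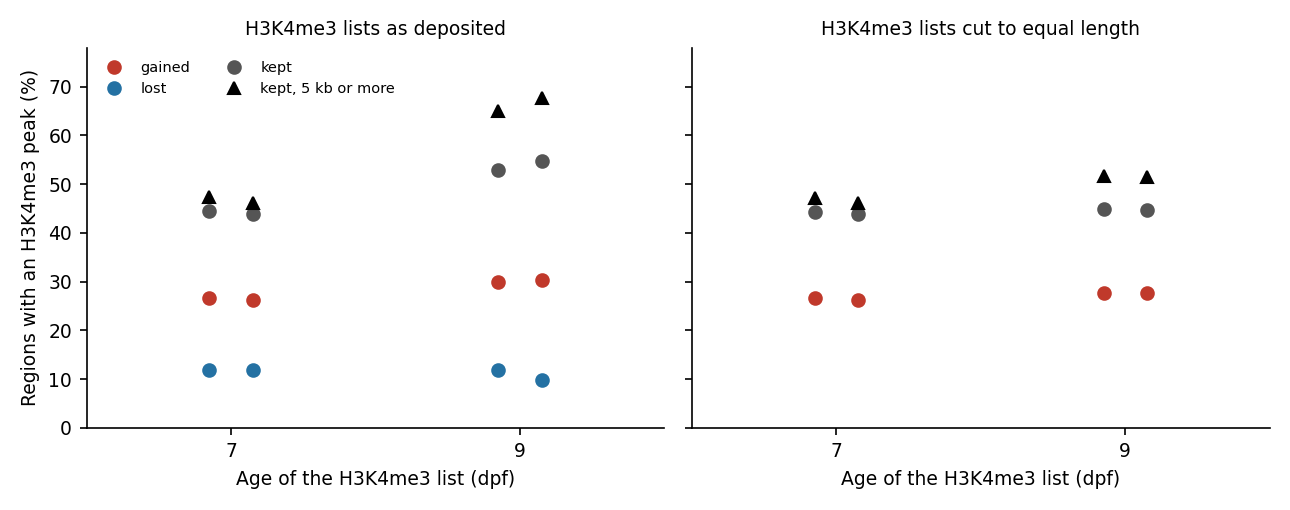
Share of H3K27me3 regions in percent that overlapped an H3K4me3 peak (vertical axis), by age of the H3K4me3 list in dpf (horizontal axis), with lists as deposited on the left and limited to 17656 peaks each on the right. Each point is 1 list for gained (red), lost (blue, left only), kept (grey) and long kept regions (black triangles); the difference between ages at kept regions, 44.5% and 43.8% against 52.9% and 54.7% on the left, is mostly gone on the right.

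Gained regions were spread over the genome. On all 25 numbered chromosomes both 9 dpf lists held more peaks and more covered bases than both 7 dpf lists, and gained regions outnumbered lost ones. These counts are from the lists as deposited, which were longer at 9 dpf, so chromosomes are not independent support. The ratio of mean peak number ran from 1.34 on chromosome 20 to 1.9 on chromosome 22. The gained share of merged regions ran from 10.0% on chromosome 4 (34 of 340) to 14.4% on chromosome 18 (51 of 355). Chromosome 22, where 14.2% were gained, had the lowest kept share, 24.0% (78 of 325), and chromosome 6 the highest, 40.5%. Lost regions were too few to rank by chromosome, with 0 on chromosomes 1 and 18 and at most 13, on chromosome 5. Kept regions that were longer in both 9 dpf lists made up 36.8% of those on chromosome 14 and 53.7% of those on chromosome 23. The median fold of gained regions in the first 9 dpf list differed little, from 3.85 to 4.09 among chromosomes, and their median width ran from 641 to 933 bases. Unplaced scaffolds added 156 regions, of which 34 were gained, 3 lost and 41 kept, a larger gained share than on any numbered chromosome. Input peaks were also frequent off the numbered chromosomes, with 76 of 717 at 7 dpf and 81 of 809 at 9 dpf. For H3K27me3 these were 70 of 5922 and 65 of 5990 at 7 dpf and 117 of 9119 and 118 of 8753 at 9 dpf. The part of input signal in the scaffold share was not tested.

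**Figure D5:**
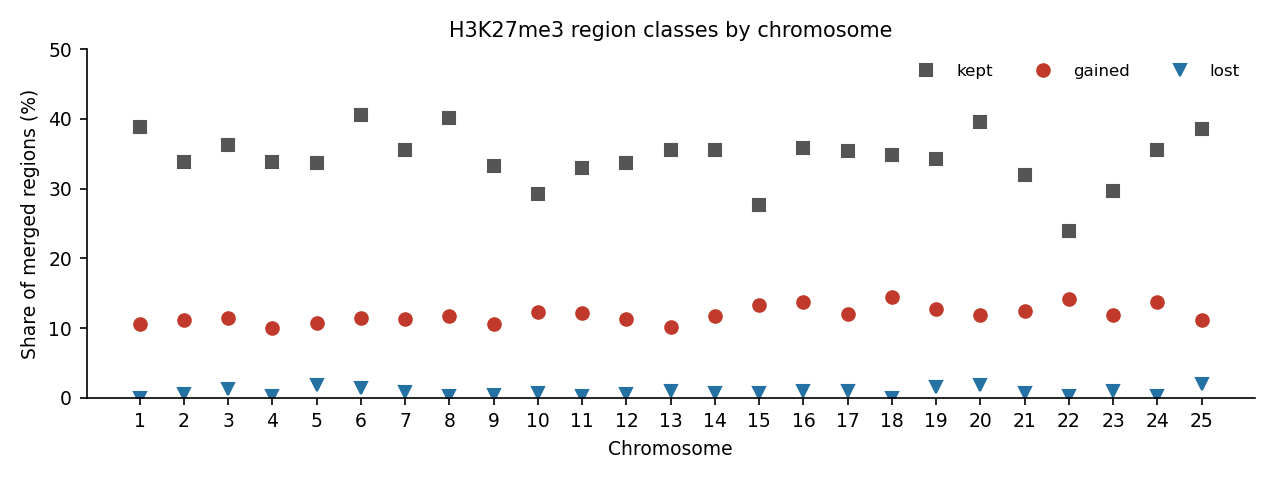
Share of merged H3K27me3 regions in percent (vertical axis) called kept (grey squares), gained (red circles) and lost (blue triangles) on each of the 25 numbered chromosomes (horizontal axis). The gained share lies between 10.0% and 14.4% on every chromosome, while the kept share varies from 24.0% to 40.5%.

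Most gained regions lay away from kept ones. A total of 234 of 1388 (16.9%) lay within 5000 bases of a kept region, at a median distance of 75.4 kb, and kept regions themselves lay that close to another kept region in 18.8% of cases. Lost regions were nearer, with 33 of 101 (32.7%) within 5000 bases and a median of 20.9 kb. In bins of 1000000 bases, 738 of the 1288 bins that held any merged region held a gained one, and 30 held 5 or more. The bin with the most gained regions, on chromosome 10 (27000001 to 28000000), held 11 gained and 21 kept regions. The next, on chromosome 21 (23000001 to 24000000), held 9 gained and 3 kept regions. Gained shares of all merged regions per bin are not given, so these counts do not show a concentration of gains.

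RNA of the enzymes that write the mark was read in separate pools. Of 24298 genes tested with limma, 365 were higher at 9 than at 7 dpf (1.50%) and 93 were lower (0.383%) at an adjusted p under 0.05. These counts rested on single libraries, with 80 higher and 21 lower without 7dpf_1, 161 and 63 without 7dpf_2, 818 and 145 without 7dpf_3, 96 and 42 without 9dpf_2, 95 and 24 without 9dpf_3, and 832 and 166 without 5dpf_2. Higher calls made up 79.7% of calls, and 57.4% after quantile scaling. Of 13 PRC2 genes tested, 1 was higher and 0 were lower, with a median log2 difference of 0.10 against −0.02 over all genes. That gene was ezh2, the PRC2 methyltransferase, at 315, 331 and 406 normalised reads at 7 dpf and 561, 679 and 557 at 9 dpf. The log2 difference was 0.77 ± 0.19 (SE, n = 3 libraries per age, limma adjusted p = 0.0372). The adjusted p ran from 0.00573 to 0.230 over the alternatives, and the call was lost without any 1 of the libraries 5dpf_1, 7dpf_1, 7dpf_2, 9dpf_1, 9dpf_2 or 9dpf_3. Transcripts of rbbp4, a histone-binding partner of PRC2 and of other chromatin complexes, were at 155, 149 and 279 at 7 dpf and 332, 353 and 300 at 9 dpf (log2 0.81 ± 0.22 SE, limma adjusted p = 0.0616). The core subunit eed was at 121, 112 and 118 against 113, 110 and 112, and suz12a and suz12b differed by 0.34 and −0.08 on the log2 scale. None of the 3 passed. The methyltransferase ezh1 was at 236, 223 and 229 against 155, 196 and 225 (log2 −0.27, limma adjusted p = 0.499).

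No gene of the demethylase, PRC1 or Hox lists passed. Over all 24298 genes tested, 3788 were at an unadjusted p under 0.05 by limma. All 4 KDM6 demethylase genes tested had log2 differences between −0.29 (kdm6al) and 0.34 (kdm6ba), with 0 of 4 at an unadjusted p under 0.05 by limma. The 23 PRC1 genes ran from −0.60 (cbx7a) to 0.52 (cbx6a), with 2 at an unadjusted p under 0.05. Hox genes, whose clusters are known Polycomb targets, gave 0 calls among 49 rows of the table, with 1 at an unadjusted p under 0.05 and a median log2 difference of −0.08. All 4 skeletal muscle markers were lower at 9 dpf by limma at an adjusted p under 0.05, against 0.383% of all genes tested. The part that a changed mix of tissues plays in the RNA or in the peaks was not tested.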

How the data were processed

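ChIP peak lists for H3K27me3 at 5, 7 and 9 dpf, H3K4me3 and input at 7 and 9 dpf, and an RNA table of 9 libraries were used. Per the submitters' processing notes, the build was GRCz10 and the tools were BWA 0.7.15, Picard and MACS2 2.1.1 (an aligner, a read-handling tool and a peak caller) and, for RNA, STAR 2.5.2b and DESeq2 1.16.1. The control and threshold of peak calling are not given in the sources used here. Peaks were deposited per library, each with a score of 10 times the −log10 q rounded down, the authors' fold, and a −log10 p and −log10 q. The deposited RNA signal was read counts divided by 1 size factor per library. Whole reads were recovered for 100% of values within a tolerance of 1e-06, with 8643185 to 14327144 reads per library at 7 and 9 dpf. Columns left unused numbered 0.

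The members and gene lists were chosen with earlier results of these data known. Peaks were merged at a gap of 0 bases, and 1 shared base counted as presence. Covered length is the number of bases of a region under the peaks of a list. Where a region held several peaks of a list, the highest fold and −log10 q were taken. Named regions, on the numbered chromosomes, were the 10 gained and 10 lost by the lower fold of their 2 lists, the 10 widest kept, the 5 kept with the largest increase and the 5 with the largest decrease among those whose ages did not overlap, and the widest gained and lost, and named genes were those of the Polycomb lists, with a part shown. RNA was tested with limma 3.58.1 (R 4.3.3; trend and robust variance) on log2(value + 1) with all 9 libraries, for genes at 10 or more in at least 3 libraries, with Benjamini-Hochberg adjustment. Fold changes with 1 added understate those of low genes. The quasi-likelihood test of edgeR 4.0.16 on the recovered reads was an alternative and called 469 genes higher and 100 lower. List values used the exact permutation test of scipy 1.17.1. The scripts were tested on simulated data. Interval and class counts cover no sampling error, since ChIP depth is unknown.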

Additional observations from a re-analysis of the deposited data

How the results depend on the processing

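With lists of equal length, 450 regions were gained and 303 lost, and the difference in median width turned from −110 to 295 bases; peak number is then equal by construction and gives no value. The difference in covered length moved from 3.60 to 1.66 Mb and that in median fold from 0.147 to 0.511. With a list counted as present only where it covered at least 0.5 of the region, 2191 were kept. A −log10 q of 5 or more, chosen after seeing the data, gave 893 gained, 27 lost and 1891 kept regions, with 763 longer and 195 shorter at 9 dpf. With presence at 5 or more and absence at any listed peak, also chosen after seeing the data, 208 were gained, 4 lost and 1891 kept. A −log10 q of 3 removed no peak. With H3K4me3 lists of equal length, again chosen after seeing the data, the share of gained H3K4me3 regions in a kept region moved from 40.6% to 24.8%, that of H3K4me3 regions in all lists from 10.1% to 9.61%, and the rise in kept regions with H3K4me3 from 9.61 to 0.838 percentage points. Leaving out 1 list gave 1886 to 3480 gained, 201 to 632 lost, 4105 to 4516 kept, 2310 to 2640 longer and 760 to 866 shorter regions, since 1 list then decides presence. Peak number then differed by 2797 to 3163, covered length by 3.49 to 3.71 Mb, median width by −122 to −98.2 bases and median fold by 0.0891 to 0.204. In all, 42 values from settings that kept all libraries, those of covered length and fold included, kept their direction. Those of the 42 that were counts stayed within 1.5 times the main value. A further 18 values from such settings were classed as moved and 1 as reversed. ChIP replicate numbers were not read as pairs: deviations of covered length in same-number lists correlated at r = −0.005. With a replicate block the differences within pairs were 3197 and 2763 peaks, with the same mean of 2980. For RNA, quantile scaling gave 891 genes higher and 661 lower, a replicate block 645 and 145, and leaving out 1 of the 9 libraries 80 to 832 higher and 21 to 166 lower. Same-number RNA libraries of 7 and 9 dpf correlated at 0.01, −0.41 and 0.09. RNA replicate numbers were not read as pairs in the main test. These correlations cannot show whether same-number pools shared a batch or clutch. Under the block rbbp4 passed as well, as it did after quantile scaling with rbb4l.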

Other observations

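Regions outside the named classes leaned towards 9 dpf in the same way. A total of 978 regions had a peak in both 9 dpf lists and 1 of the 7 dpf lists, against 183 with a peak in both 7 dpf lists and 1 of the 9 dpf lists. Their median widths were 1166 and 1165 bases, between those of gained and kept regions. A further 473 regions had a peak in 1 list of each age, with a median width of 778 bases.

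Marker lists of other cell types give the tissue background of the pools. For the counts below, 3788 of all 24298 genes tested were at an unadjusted p under 0.05 by limma. At an adjusted p under 0.05 by limma, 365 of all genes tested were called higher at 9 dpf (1.50%) and 93 lower (0.383%). Liver markers summed to 410 to 1078 normalised reads per library at 7 dpf and 233 to 269 at 9 dpf, with 0 of 3 called by limma and 0 at an unadjusted p under 0.05. Goblet cell markers summed to 1027 to 1450 and 1496 to 1620, with 1 of 2 tested higher. Leukocyte markers summed to 215 to 324 and 340 to 417, with 0 of 4 called and 2 at an unadjusted p under 0.05 by limma. Enteroendocrine markers, at 268 to 307 and 285 to 320, and enteric neuron markers, at 401 to 473 and 385 to 427, overlapped between ages. Each had 0 of 4 tested genes called by limma and 1 at an unadjusted p under 0.05. Smooth muscle, exocrine pancreas and epidermal markers had 0 calls, and 0 genes of the 3 lists were at an unadjusted p under 0.05.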
